A study of Mus musculus with 4 samples.

Results

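Vascular growth factor and angiopoietin genes were examined in granulosa cells (GCs), which enclose and nourish the oocyte in the ovarian follicle. The set held 10 genes, taken by symbol from the 55385 genes of the count table, in a choice made with earlier results of these data known. All 10 were among the 19259 genes that passed the filter on low counts and were tested. They comprised 5 ligands (Vegfa, Vegfb, Vegfc, Angpt1 and Angpt2), 4 receptors (Kdr, Flt1, Nrp1 and Tek) and 1 regulator (Hif1a). Preantral follicles of female Kunming mice, 12 to 14 days old, were dissected mechanically and grown singly in medium with follicle-stimulating hormone, fetuin, albumin, insulin and transferrin for 6 days. The NT4 group (n = 2 libraries) also received neurotrophin-4 (NT-4), a growth factor that signals through the receptor TRKB, and the Control group (n = 2 libraries) did not. The question was how NT-4 altered GCs during in vitro growth. By the study's description both groups were grown alike but for NT-4, whose dose the labels leave out. By the study's description the libraries of a group came from independent experiments.

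The vascular endothelial growth factor (VEGF) family and the angiopoietins are secreted ligands that act on endothelial cells. Vegfa signals mainly through Kdr, while Flt1 binds Vegfa tightly as a decoy and is also the receptor of Vegfb. Vegfc acts through Flt4 on lymphatic vessels, and Nrp1 is a co-receptor. Angpt1 activates the receptor Tek and stabilises vessels, and Angpt2 antagonises or activates Tek depending on context. Hif1a encodes the oxygen-labile subunit of hypoxia-inducible factor (HIF), which is regulated largely at the protein level and activates Vegfa. In the ovary, GCs of growing follicles make VEGF, vessels run in the theca outside the basement membrane, and the granulosa layer itself holds no vessels.

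The libraries held 49520092 to 78704020 expected counts, estimated from read coverage, and 22363 to 23052 genes above 0. Low counts gathered at multiples of 4 (45.4% to 46.2% of counts from 1 to 12), and on the assumption of about 4 counts for each read pair the totals equal an estimated 12380023 to 19676005 read pairs. Every number of read pairs below, with its floor and interval, rests on this estimate. Levels are given as CPM, the counts scaled to the library total. A count of 0 allows up to 3 read pairs, or 0.152 to 0.242 CPM by library, and this floor and all intervals on read pairs cover counting error only. The identity of the cells was checked by marker lists. The 10 granulosa markers summed to 12290 and 15490 CPM in Control and to 10480 and 16980 CPM in NT4, led by Inha, the inhibin alpha subunit. Of 18 endothelial markers, between 2 and 6 per library lay at or under the floor. Of 10 leukocyte and blood markers, 5 did so in every library. Transcripts of other cell types were present as well. The 10 theca and stroma markers summed to 1183 and 1180 CPM in Control and to 1686 and 1342 CPM in NT4. The 10 oocyte markers summed to 69.5 to 102.2 CPM.

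Vegfa, Vegfb and Angpt2 lay far above the receptor genes of endothelium, while Vegfc and Angpt1 were low. To compare genes, CPM was divided by the annotated exon length in kilobases (kb). The ligands together took 53.7% and 56.1% of the summed per-kb level of the 10 genes in Control, and 54.8% and 60.6% in NT4. Within this ligand sum Vegfc took 0.873% to 1.44% and Angpt1 0.245% to 0.478%. Hif1a alone took 38.4% to 45.1%. Kdr, Flt1 and Tek together took 0.0725% to 0.211%. In each library, therefore, the transcripts found were mainly those of Vegfa, Vegfb, Angpt2 and Hif1a, and those of the endothelial receptors were near the limit of detection. These libraries are bulk, so fewer cells of a type and less RNA per cell cannot be told apart.

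**Figure D1:**
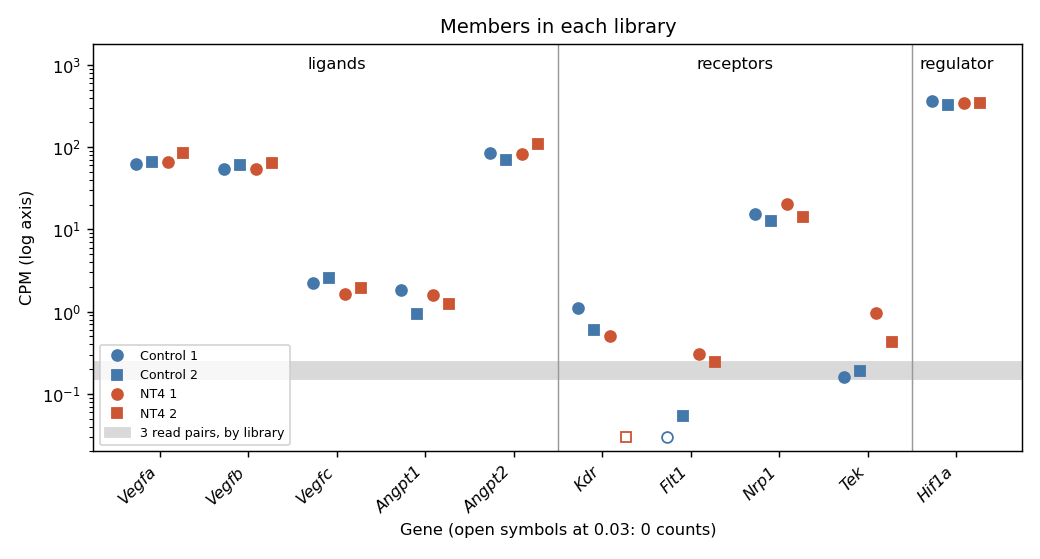
CPM (log axis) of the 10 genes in each of the 4 libraries, with Control in blue and NT4 in red, replicate 1 as circles and replicate 2 as squares. The grey band marks 3 read pairs by library (0.152 to 0.242 CPM) and open symbols mark 0 counts, which occurred for Kdr in NT4 2 and for Flt1 in Control 1.

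The order of the mean per-kb levels was Hif1a, Vegfb, Angpt2, Vegfa, Nrp1, Vegfc, Angpt1, Tek, Kdr and Flt1. Hif1a ranged from 56.1 to 61.4 CPM per kb, above 95.3% of the genes tested. Vegfb ranged from 33.8 to 40.5, Angpt2 from 19.1 to 30.0 and Vegfa from 14.6 to 20.0 CPM per kb. The ranges of Angpt2 and Vegfa met, but within each library Vegfa lay below Angpt2, at 0.625 to 0.799 of its per-kb level. Nrp1 followed at 1.28 to 2.11, Vegfc at 0.679 to 1.05 and Angpt1 at 0.180 to 0.349 CPM per kb. The lowest were Tek (0.0343 to 0.202), Kdr (0 to 0.123) and Flt1 (0 to 0.0227). The ranges of Angpt1 and Tek also met, but Angpt1 was the higher in each library, by at least 6.79-fold in Control 1, 4.46-fold in Control 2, 1.5-fold in NT4 1 and 2.61-fold in NT4 2. Tek and Kdr, and Kdr and Flt1, were neighbours whose ranges overlapped, so their order did not exceed the spread between libraries. The order was the same for 10 of 10 genes with the longest transcript as the length. Only the order was checked in this way, and the per-kb ratios and shares rest on the annotated exon length.

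The most abundant ligands exceeded their signalling receptors in every library. Vegfa was 119-fold and 231-fold above Kdr per kb in Control 1 and Control 2, 276-fold above it in NT4 1, and at least 1180-fold above it in NT4 2, where Kdr had no count. Angpt2 was at least 454-fold above Tek in Control 1 and 474-fold in Control 2, and 111-fold and 327-fold above it in NT4 1 and NT4 2. Thus the lowest ratio of Angpt2 to Tek lay in NT4 1, the library with most Tek. For the scarcer ligands the ratio was smaller, and Vegfc lay at 0.806-fold to 1.38-fold of its receptor Flt4. Among the ligands, Angpt2 exceeded its relative Angpt1 by 66.8-fold and 106-fold in Control and by 74.1-fold and 125-fold in NT4. Vegfa exceeded Vegfc by 14.5-fold to 25-fold.

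**Figure D2:**
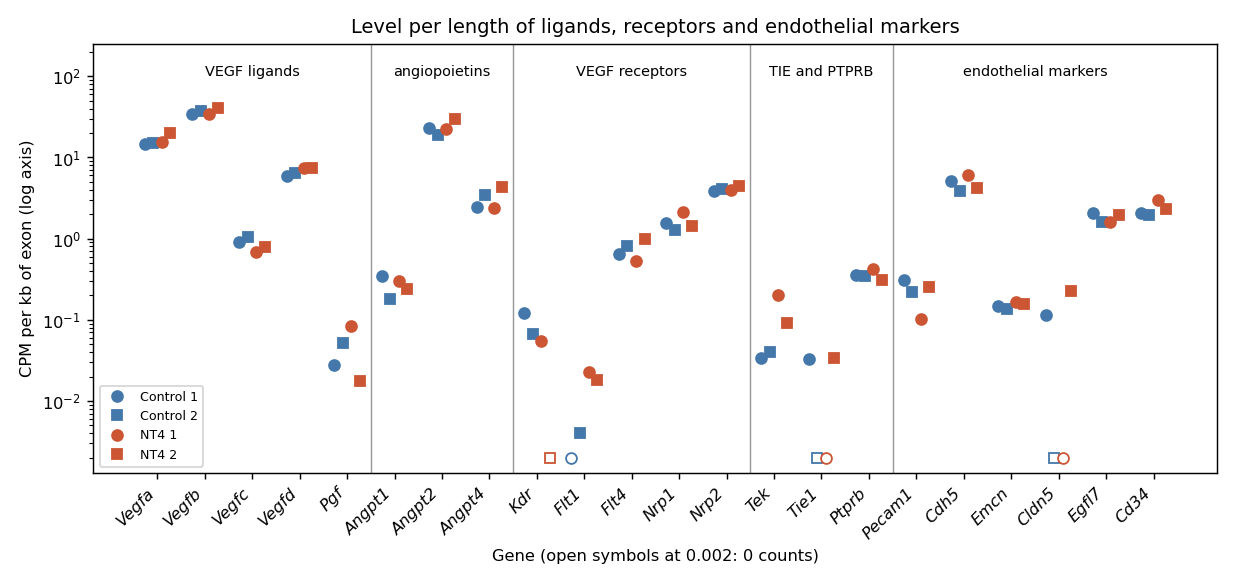
CPM per kb of exon (log axis) in each library for VEGF ligands, angiopoietins, their receptors and 6 endothelial markers, with colours for groups and shapes for replicates. Vegfa, Vegfb and Angpt2 lie between 14.6 and 40.5, while Kdr, Flt1 and Tek lie at or below 0.202, and open symbols mark 0 counts.

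Since HIF binds a short core element in target promoters, the 250 bases before the annotated start were read from RefSeq (GRCm38.p6), which gave windows for 8 of the 10 genes. Angpt1 and Angpt2 had no window. ACGTG and GCGTG were searched on both strands (CACGT and CACGC on the printed strand), and a CACGTG counts on both. One or the other was found in 6 of 9 windows, including a second window inside Vegfa, against 38.6% of 32851 windows in the same table. G and C made up 51.2% to 76.4% of the member windows, against a median of 52.4% over the table. By role, either motif was present in 2 of 4 ligand windows, 3 of 4 receptor windows and the window of Hif1a. The ligand windows with a match were that of Vegfb and the second window of Vegfa. The windows of 4 genes are shown with matches in capitals, so that 2 ligands at a high level can be set beside 2 receptors near the floor. They are Vegfa (chr17:46032378-46032627, minus strand), Vegfb (chr19:6987652-6987901, minus strand), Kdr (chr5:75978456-75978705, minus strand) and Tek (chr4:94739039-94739288, plus strand), each 5′ to 3′ on the gene's strand.
Vegfa: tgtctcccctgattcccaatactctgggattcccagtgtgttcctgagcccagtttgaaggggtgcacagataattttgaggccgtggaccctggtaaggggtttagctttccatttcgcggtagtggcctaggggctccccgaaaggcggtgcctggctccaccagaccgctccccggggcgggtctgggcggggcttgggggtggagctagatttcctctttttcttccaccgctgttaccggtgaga
Vegfb: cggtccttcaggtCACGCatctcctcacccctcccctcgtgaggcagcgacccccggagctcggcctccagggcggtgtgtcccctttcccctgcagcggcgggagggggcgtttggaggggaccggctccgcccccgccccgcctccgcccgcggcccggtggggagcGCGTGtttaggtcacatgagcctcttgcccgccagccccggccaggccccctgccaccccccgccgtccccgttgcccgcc
Kdr: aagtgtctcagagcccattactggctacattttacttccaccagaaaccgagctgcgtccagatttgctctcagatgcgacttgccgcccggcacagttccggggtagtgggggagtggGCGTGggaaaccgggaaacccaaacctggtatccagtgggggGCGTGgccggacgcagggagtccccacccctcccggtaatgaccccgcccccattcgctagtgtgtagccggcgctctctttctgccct
Tek: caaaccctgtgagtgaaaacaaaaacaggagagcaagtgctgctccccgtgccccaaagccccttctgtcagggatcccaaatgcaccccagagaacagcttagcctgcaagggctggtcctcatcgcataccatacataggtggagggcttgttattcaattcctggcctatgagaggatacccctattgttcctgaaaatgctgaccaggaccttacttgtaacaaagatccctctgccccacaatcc
Vegfb and Kdr each held 2 GCGTG matches, and Vegfa and Tek held neither motif in the windows shown. The second Vegfa window (chr17:46025164-46025413) held 1 ACGTG and 1 GCGTG. It lies inside the span of Vegfa, as the windows of Hif1a and Nrp1 lie inside theirs, so these matches can fall in transcribed sequence. A match is a description of letters and not a measured binding site. Sequence beyond the 250 bases was not searched, so a window without a match does not show that the gene lacks the element.

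Between the groups, 0 of the 10 genes passed the edgeR quasi-likelihood test at an adjusted p of 0.05, against 0% of all genes tested, and each member had an adjusted p of 0.9999. Tek alone met the fold change and unadjusted p criterion named in the study's methods (fold above 2 or under 0.5 with p under 0.05), against 1.08% of all genes tested (0.478% higher and 0.602% lower in NT4), and it alone had an unadjusted edgeR p under 0.05, against 1.99% of all genes tested. DESeq2 and limma voom also called 0 of the 10 at an adjusted p of 0.05. Of the 19259 genes tested, DESeq2 called 65 and limma voom 0. Fitted log2 fold changes (NT4 over Control) were positive for 7 genes and negative for 3, where 51% of all genes tested were positive, and their median was 0.17 against 0.0045 over all genes tested. Flt1 passed the filter only through its NT4 libraries, which fixes its direction, so this tally and median are a description only. The smallest adjusted p over all genes was 0.13. Only 3 splits of 4 libraries into 2 and 2 exist, so that an exact permutation test could not go below a two-sided p of 0.333, and the p-values below draw on a variance shared across genes in edgeR.

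**Figure D3:**
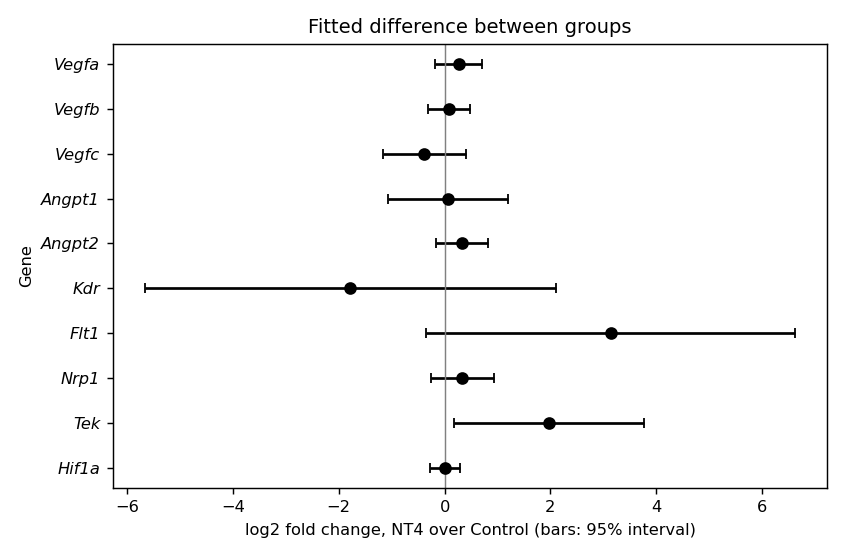
Fitted log2 fold change of NT4 over Control for each of the 10 genes (points) with its 95% interval (bars) from edgeR. Intervals are narrow for Hif1a (-0.28 to 0.28) and the abundant ligands and wide for Kdr and Flt1, and that of Tek (0.18 to 3.76) excludes 0 before adjustment.

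Vegfa (ENSMUSG00000023951, chr17:46016993-46032369, GRCm38), the main inducer of vessel growth, measured 62.5 and 65.4 CPM in the first and second Control library and 65.6 and 85.6 CPM in the first and second NT4 library. One NT4 library was high and the other was level with Control 2. The groups (63.9 ± 2.0 against 75.6 ± 14.1 CPM, SD, n = 2) met once the edgeR scaling factors were applied. The log2 fold change was 0.26 with a standard error (SE) of 0.17 (95% interval -0.17 to 0.70, edgeR unadjusted p = 0.186). By the distance of centred log2 CPM over the 4 libraries, the genes most like Vegfa among 14332 with a mean CPM of at least 1 were Rpl34-ps1, Lynx1 and Nrg4. Rpl34-ps1, at 504.2, 527.2, 530.3 and 686.3 CPM in the same order of libraries, is a ribosomal protein pseudogene whose reads can be split with its parent gene, so its counts are uncertain. Lynx1 lay at 4.48 to 6.09 CPM and Nrg4 at 0.990 to 1.39 CPM, and both were highest in NT4 2.

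Vegfb (ENSMUSG00000024962, chr19:6982473-6987651) measured 54.3 and 60.6 CPM in the first and second Control library and 54.7 and 65.1 CPM in the first and second NT4 library. The groups overlapped, at 57.4 ± 4.42 and 59.9 ± 7.29 CPM, with a log2 fold change of 0.08 (SE 0.16, edgeR unadjusted p = 0.62). Within a library Vegfb exceeded Vegfa by 2.03-fold to 2.47-fold per kb. Vegfc (ENSMUSG00000031520, chr8:54077606-54187096) measured 2.22 and 2.58 CPM in Control and 1.66 and 1.96 CPM in NT4. Both NT4 libraries lay below both Control libraries, as in 12.7% of all genes tested. The fitted log2 fold change for Vegfc was -0.39 (SE 0.31, 95% interval -1.17 to 0.40, edgeR unadjusted p = 0.265), and this interval included 0. The library intervals from 26 to 48 read pairs also overlapped, for example 1.92 to 3.45 CPM in Control 2 and 1.41 to 2.71 CPM in NT4 2.

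Angpt2 (ENSMUSG00000031465, chr8:18690263-18741562), a ligand of Tek linked to vessel remodelling, measured 86.1 and 70.5 CPM in the first and second Control library and 83.0 and 110.7 CPM in the first and second NT4 library. The highest value was again in NT4 2, and NT4 1 lay between the Control libraries. With means of 78.3 ± 11.1 and 96.9 ± 19.6 CPM the log2 fold change was 0.33 (SE 0.19, 95% interval -0.16 to 0.82, edgeR unadjusted p = 0.144). Angpt1 (ENSMUSG00000022309, chr15:42424723-42676977) measured 1.82 and 0.936 CPM in the first and second Control library and 1.58 and 1.25 CPM in the first and second NT4 library. Both NT4 values lay inside the Control range, and the log2 fold change was 0.06 (SE 0.45, edgeR unadjusted p = 0.892). An antisense gene, Gm17473, shares 14.2% of the Angpt1 exon length, and whether counting used strand is not given in the sources used here, so these low counts are uncertain.

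Other ligands of both families, from lists of 5 VEGF and 3 angiopoietin ligands, gave no call in either direction. Vegfd, a ligand of Flt4, measured 14.0 and 15.4 CPM in Control and 17.8 and 17.9 CPM in NT4. Both NT4 libraries were above both Control libraries, but the log2 fold change of 0.30 (SE 0.16) had an unadjusted edgeR p of 0.117. Angpt4, the third mouse angiopoietin, measured 5.70 and 7.95 CPM in Control and 5.65 and 10.1 CPM in NT4. Its groups overlapped, and Angpt2 exceeded it by 5.61-fold to 9.57-fold per kb. Pgf, a placental ligand of Flt1, had between 1 and 4 read pairs per library.

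Kdr (ENSMUSG00000062960, chr5:75932827-75978458), the main signalling receptor for Vegfa, measured 1.11 and 0.597 CPM in the first and second Control library and 0.50 and 0 CPM in the first and second NT4 library. These values stand for 14, 11, 8 and 0 read pairs, and the 0 allows up to 0.152 CPM. Both NT4 libraries were below both Control libraries. Summed over libraries the ratio of NT4 to Control was 0.28 (0.109 to 0.641 from counting error alone), whereas the fit, which includes the spread between libraries, gave a log2 fold change of -1.78 (SE 1.54, 95% interval -5.65 to 2.10, edgeR unadjusted p = 0.296). The value depends on NT4 2 and on the method, since the log2 fold change was -0.76 (SE 0.73) without that library and -4.01 in limma voom with all 4. With a block for replicate number it was -2.85. Without NT4 1 it was -8.83, where the NT4 group is 1 library at 0 and the value depends on the prior count.

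Flt1 (ENSMUSG00000029648, chr5:147561604-147726011), the decoy receptor, measured 0 and 0.0542 CPM in the first and second Control library and 0.307 and 0.241 CPM in the first and second NT4 library. That is 0 and 1 read pairs in Control against 5 and 5 in NT4. Both Control libraries were at or under the floor and both NT4 libraries just above it. The ratio of read pairs was 8.76 with a counting interval of 1.25 to 380, and the log2 fold change was 3.14 (SE 1.38, 95% interval -0.35 to 6.62, edgeR unadjusted p = 0.069). Flt1 passed the filter only through the NT4 libraries, and no difference was detectable by the test at this depth. With 1 library left out the log2 fold change ranged from 2.30 without Control 1 to 7.13 without Control 2. The latter compares with 1 library at 0 and depends on the prior count.

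Tek (ENSMUSG00000006386, chr4:94739289-94874976), the angiopoietin receptor, measured 0.162 and 0.190 CPM in the first and second Control library and 0.952 and 0.432 CPM in the first and second NT4 library. The read pairs were 2 and 4 in Control and 15 and 9 in NT4, a ratio of 3.5 (1.4 to 10.5 from counting error alone). Both NT4 libraries were above both Control libraries, as in 13.4% of all genes tested. The log2 fold change was 1.97 (SE 0.71, 95% interval 0.18 to 3.76) with an unadjusted edgeR p of 0.0366 and an adjusted p of 0.9999. Without NT4 1 the edgeR fit gave 1.32 with an unadjusted p of 0.268, without Control 1 it gave 1.85 with an unadjusted p of 0.0923, and without Control 2 it gave 2.11 with an unadjusted p of 0.0705. Without NT4 2 it gave 2.42 with an unadjusted p of 0.032. The unadjusted p was 0.0399 in DESeq2 and 0.0905 in limma voom. With a block for replicate number, which the labels do not call a pairing, the log2 fold change was 1.87 (edgeR unadjusted p = 0.0662). Under that block Tek did not meet the criterion. With 1 library left in a group, the fit takes its spread from the group that keeps 2. Per kb, even the highest Tek value (0.202) was below the lowest values of Vegfa and Angpt2 (14.6 and 19.1).

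Nrp1 (ENSMUSG00000025810, chr8:128358604-128503363), a co-receptor for VEGF and class 3 semaphorins that many cell types other than endothelium also make, measured 15.2 and 12.6 CPM in the first and second Control library and 20.6 and 14.0 CPM in the first and second NT4 library. NT4 2 lay between the Control libraries, and the log2 fold change was 0.33 (SE 0.23, 95% interval -0.26 to 0.93, edgeR unadjusted p = 0.21). Nrp1 exceeded Kdr by 12.7-fold to 38-fold per kb in the first 3 libraries and by at least 84.7-fold in NT4 2. Its relative Nrp2 was higher still, at 1.91-fold to 3.17-fold of Nrp1 per kb, and measured 45.3 to 53.3 CPM. Flt4, the receptor of Vegfc and Vegfd, measured 5.39 and 6.70 CPM in Control and 4.31 and 8.16 CPM in NT4. Ptprb, a phosphatase that restrains Tek, measured 4.16 to 5.63 CPM, and Tie1, the partner of Tek, had 2 and 3 read pairs in Control 1 and NT4 2 and none in the other libraries. None of these had an unadjusted edgeR p under 0.05. The 5 VEGF receptors and co-receptors together summed to 67.1 and 68.1 CPM in Control and to 73.4 and 75.7 CPM in NT4, mostly Nrp2 and Nrp1, with 0 called. Both NT4 sums were above both Control sums.

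Of the 4 genes whose groups did not overlap (Vegfc and Kdr lower in NT4, Flt1 and Tek higher), 3 were the receptors with fewest read pairs, and across all genes 26% did not overlap (26.6% when scaled by library totals alone). By library totals Vegfa joined them as higher in NT4. Flt1 entered the test only through its NT4 libraries, which fixes its direction, and Kdr had both libraries past the filter in Control only. These counts are therefore a description only. The median log2 fold change was 0.08 over the 5 ligands. Over the 4 receptors it was 1.15, midway between Nrp1 and Tek, with Flt1 counted among the higher values. Without Flt1 the middle value is that of Nrp1 (0.33). The median was also 0.33 under a filter at CPM 1, where Nrp1 alone was tested. It was -0.72 with counts divided by 4, where Flt1 and Tek were not tested.

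The marker lists were set beside these values. Of 18 endothelial markers 17 were tested and 0 were called, and their summed level was 49.7 to 59.1 CPM in Control and 54.1 to 70.7 CPM in NT4. The groups overlapped. Cdh5, the endothelial cadherin, measured 21.8 and 16.4 CPM in Control and 25.5 and 17.6 CPM in NT4, above Pecam1 at 0.645 to 1.92 CPM. Cldn5, a junction protein, and Tie1 were at 0 in Control 2 and NT4 1, and Sox17 was at 0 in every library but Control 2. Cd34, which stroma also carries, measured 15.1 and 14.3 CPM in Control and 21.9 and 16.7 CPM in NT4 (log2 fold change 0.41, SE 0.19). Over the list 13 log2 fold changes were positive and 4 negative, where 51% of all genes tested were positive. The negative ones were Lyve1 (-1.80), Pecam1 (-0.53), Prox1 (-0.36) and Egfl7 (-0.0084).

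For the theca and stroma list and the pericyte and smooth muscle list, both NT4 sums lay above both Control sums, with 0 genes called in either. The 10 markers of theca and stroma summed to 1183 and 1180 CPM in Control and to 1686 and 1342 CPM in NT4, with 10 of 10 positive log2 fold changes (against 51% of all genes tested) and a median of 0.38. For 8 of the 10 both NT4 libraries were above both Control libraries, against 13.4% of all genes tested. The matrix genes Dcn, Lum and Col3a1 had log2 fold changes of 0.39, 0.65 and 0.37, with edgeR unadjusted p-values of 0.0267, 0.0444 and 0.0383. The 10 markers of pericytes and smooth muscle summed to 401.2 and 356.5 CPM in Control and to 507.6 and 465.0 CPM in NT4, led by Acta2, smooth muscle actin (238.0, 211.8, 312.2 and 289.5 CPM). Next by CPM was Tagln (113.0, 96.1, 129.7 and 115.2 CPM), so the sum rests largely on Acta2 and Tagln. Acta2 had a log2 fold change of 0.44 (SE 0.12, edgeR unadjusted p = 0.0125). Of the 9 pericyte and smooth muscle markers tested, 8 log2 fold changes were positive and 1 was negative (Des, -0.44). For 4 of the 9 both NT4 libraries were above both Control libraries, against 13.4% of all genes tested. Of these 10 markers 1 lay at or under the floor in every library, and none of the 10 theca and stroma markers did. These sums lay on the same side as Tek and on the opposite side to Kdr (log2 fold change -1.78). Flt1 was also higher in NT4, but it entered the test only through its NT4 libraries, which fixes its direction. The part of these markers in the receptor values was not tested. The oocyte markers (69.5 to 102.2 CPM) and the granulosa markers overlapped between the groups.

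**Figure D4:**
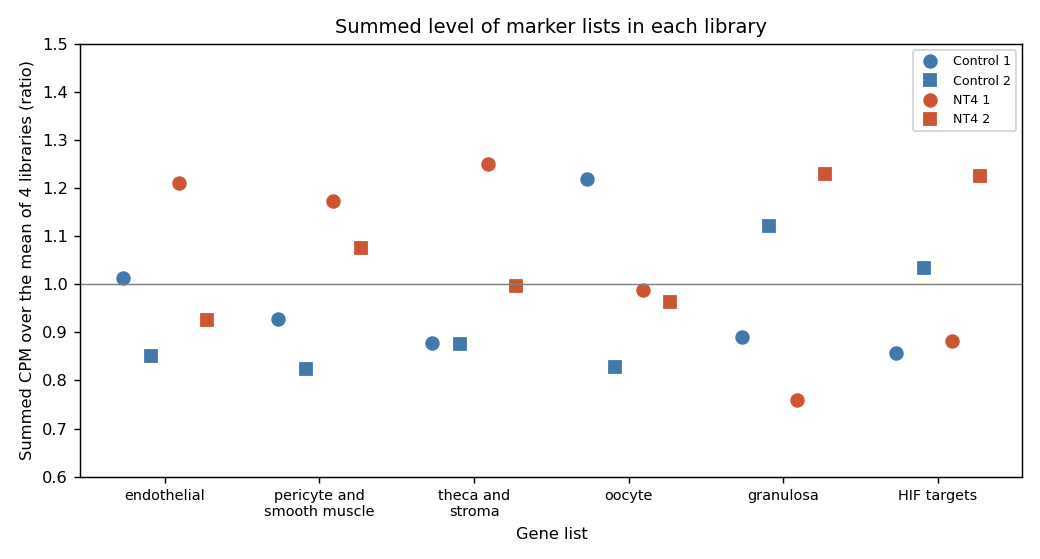
Summed CPM of 6 of the 15 gene lists in each library, divided by the mean of the 4 libraries for that list (ratio). The theca and stroma list and the pericyte and smooth muscle list have both NT4 libraries above both Control libraries, and the other 4 lists shown overlap.

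Hif1a (ENSMUSG00000021109, chr12:73901375-73947530) measured 361.8 and 330.6 CPM in the first and second Control library and 340.3 and 341.8 CPM in the first and second NT4 library. Both NT4 libraries lay inside the Control range. With means of 346 ± 22.1 and 341 ± 1.06 CPM the log2 fold change was -0.00014 (SE 0.11), and its 95% interval of -0.28 to 0.28 was the narrowest of the 10 genes. Exons of 2 other genes overlap those of Hif1a, of which Gm49321 on the same strand had 0, 0, 0 and 2 counts. Epas1, the other main HIF alpha subunit, measured 222.0 to 284.1 CPM, and Hif1a exceeded it by 1.1-fold to 1.55-fold per kb. In the list of 10 HIF subunits and oxygen sensors 0 were called. Of their log2 fold changes 6 were positive and 4 negative, where 51% of all genes tested were positive, and the median was 0.05. The largest was that of Arnt2, a partner subunit, with 28.0 and 69.3 CPM in Control and 131.8 and 54.0 CPM in NT4. Its groups overlapped (0.94, SE 0.57, edgeR unadjusted p = 0.153). HIF activity itself was not measured.

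Of 22 HIF target genes 0 were called and 19 had a positive log2 fold change (against 51% of all genes tested), with a median of 0.15. The groups did not overlap for 7 of them (5 higher and 2 lower in NT4), against 26% of all genes tested. Ldha, which makes lactate, measured 719.2 and 896.3 CPM in Control and 748.5 and 1215 CPM in NT4. Pgk1, a glycolytic enzyme, measured 474.4 and 566.8 CPM in Control and 524.8 and 755.4 CPM in NT4. Both were highest in NT4 2, the library that also had most Vegfa and Angpt2, and both overlapped between the groups. That peak was not particular to these genes. The summed granulosa markers were highest in NT4 2 as well, at 16980 CPM against 12290 and 15490 CPM in Control and 10480 CPM in NT4 1. Not every granulosa marker followed, since Amh was lowest in NT4 2 (89.6 CPM). Aldoa ranged from 979.0 to 1318 CPM. Pfkfb3, which makes an allosteric activator of glycolysis, measured 61.3 and 61.2 CPM in Control and 31.5 and 26.5 CPM in NT4. The fit gave -1.06 on the log2 scale (SE 0.14), an unadjusted edgeR p of 0.000523 and an adjusted p of 0.667. It was the only HIF target that met the fold change and unadjusted p criterion, against 1.08% of all genes tested (0.602% lower in NT4).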

How the data were processed

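Bulk RNA sequencing (paired-end, dUTP libraries) was done on GCs of 4 libraries, grouped by their labels. Per their methods, the authors trimmed reads with Cutadapt, mapped them with HISAT2 to the mouse genome (mm10 per the labels) and estimated expression with StringTie and ballgown. What the authors deposited for each gene is an expected count, rounded to a whole number and not normalized. Files of single libraries matched the table in 4 of 4 libraries. Of counts from 1 to 12, 45.4% to 46.2% were multiples of 4. Counts stem from amplified reads without molecular identifiers. Of 55385 identifiers, 55144 matched a symbol. Coordinates and exon lengths came from GRCm38 (GENCODE).

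Counts were tested in R 4.3.3 with the edgeR 4.0.16 quasi-likelihood test, TMM factors, the default low count filter (10 counts, or about 0.147 CPM, in 2 libraries), group as the only term, and Benjamini-Hochberg adjustment over 19259 genes, two-sided. The procedure was tested on simulated data. The members and the 15 gene lists were chosen with earlier results of these data known, and members were read from the fit over all genes. Named genes were all members, up to 3 genes of highest CPM per kb in each list, list genes with an unadjusted p under 0.05 and the 3 genes nearest to Vegfa. Others were named after their values were seen. Alternatives were other scaling, other filters, DESeq2 1.42.0, limma 3.58.1 voom, a replicate block, counts divided by 4, overlapping genes summed, transcript length and leaving out each library.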

Additional observations from a re-analysis of the deposited data

How the results depend on the processing

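Members called at an adjusted p of 0.05 stayed at 0 under every setting run, with a lowest adjusted p of 0.668. Of 125 member fold changes under alternatives 117 kept their direction and side of the threshold. Kdr, Flt1 and Tek had 0 to 15 read pairs per library, and the part of low depth in their wide intervals was not tested. Over all genes, 0 calls became 10 with no filter, 65 with the DESeq2 Wald test, and 0 to 37 with 1 library left out (12 without Control 1, 37 without Control 2). Genes meeting the fold and p criterion (208) numbered 345 with no filter, 87 with a filter at CPM 1, 119 with counts divided by 4, and 341 to 512 with 1 library left out. Members meeting it (1, Tek) numbered 0 with the CPM 1 filter, limma voom, the replicate block or counts divided by 4, and 0 to 1 with 1 library left out. In edgeR that was 0 without Control 1, Flt1 in place of Tek without Control 2 (unadjusted p = 0.0405), Kdr without NT4 1 (unadjusted p = 0.00359) and Tek without NT4 2. A lone library is there assumed to vary like the other group, and both the Flt1 and the Kdr p set 1 library at 0 against a pair, so they support no call. The median over receptors (1.15) was 0.33 with the CPM 1 filter, where Nrp1 alone was tested, -0.72 with counts divided by 4, where Flt1 and Tek were not tested, and 0.68 to 1.49 with 1 library left out. The median over ligands (0.08) was 0.037 to 0.22 with 1 library left out.

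Signs turned for genes near 0. Hif1a was 0.0019 with limma voom, 0.00075 with the replicate block and -0.049 to 0.051 with 1 library left out. Vegfb ranged from -0.070 to 0.21 and Angpt1 from -0.33 to 0.60 with 1 library left out. Vegfa ranged from 0.04 to 0.45, Angpt2 from 0.09 to 0.53 and Nrp1 from 0.05 to 0.57. Kdr ranged from -8.83 to -0.76, Flt1 from 2.30 to 7.13 and Tek from 1.32 to 2.42. The lowest Kdr value and the highest Flt1 value compare with a group at 0 and depend on the prior count. The cause of these changes was not tested. By the study's methods the follicle cultures of all groups ran in parallel, but the labels do not say that replicate numbers pair samples. With 2 numbers the data cannot show such a pairing. The Pearson correlation of deviations across genes, between libraries of equal number, was 0.14 over all genes tested. It was 0.306 over 10491 genes whose mean log2 CPM exceeded 3. With the replicate block the log2 fold change was 1.87 for Tek (edgeR unadjusted p = 0.0662), 3.40 for Flt1 and -2.85 for Kdr.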

Other observations

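Transcripts of other secreted regulators of vessels were also present in these libraries, and the cells that made them cannot be told apart in bulk RNA. Class 3 semaphorins, ligands of the neuropilins, summed to 469.8 and 391.2 CPM in Control and to 422.8 and 387.5 CPM in NT4. Of 7 genes tested 0 were called, and 2 log2 fold changes were positive and 5 negative, where 51% of all genes tested were positive. Sema3g was the highest of them per kb, with 268.9 and 218.5 CPM in Control and 235.0 and 218.0 CPM in NT4. Sema3c measured 115.3 to 146.6 CPM and Sema3b 42.8 to 49.6 CPM.

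In a list of 10 genes written for inhibitors of angiogenesis, of which Spry1 acts inside the cell and Vash2 is linked to vessel growth, 0 were called. These genes had 4 positive and 6 negative log2 fold changes, where 51% of all genes tested were positive. Thbs1, which encodes thrombospondin-1, took most of their sum and measured 2396 and 2334 CPM in Control and 2252 and 1814 CPM in NT4 (log2 fold change -0.20, SE 0.12, edgeR unadjusted p = 0.16). Its relative Thbs2 lay the other way, with 17.8 and 17.6 CPM in Control and 25.4 and 23.1 CPM in NT4 (0.48, SE 0.15, edgeR unadjusted p = 0.0221). Adamts1, a protease of the ovulatory follicle, measured 126.3 to 187.2 CPM. Among 15 other angiogenic factors 0 were called. Of their log2 fold changes 10 were positive and 5 negative, where 51% of all genes tested were positive. Pdgfb measured 57.1 and 40.2 CPM in Control and 61.4 and 32.7 CPM in NT4, with replicate 1 above replicate 2 in both groups. Pdgfc had the same order, with 60.8 and 46.3 CPM in Control and 63.4 and 38.7 CPM in NT4.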
